A study of Mus musculus with 15 samples.

Results

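The late state of a serum course was examined in mouse embryonic stem (ES) cells that differ in their Srf genotype. It was read from the 6 arrays of 180 and 10 min of fetal bovine serum (FBS), out of 15 arrays in the series, with 3 arrays at each time. Each time held 1 array of E100-/- (an Srf-null ES line), 1 of E100-/- rescue and 1 of E14wt (the wild-type line E14), so each 180 min array was paired with the 10 min array of its own line. All groups had received FBS. How the rescue line was made is not in the labels, nor whether a line is 1 clone or how cells were kept before serum. With 1 array per line and time, the lines are the only replicates, and p-values measure the spread over these arrays. The number of arrays limits the precision.

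Serum growth factors switch on a first wave of genes, the immediate-early genes, through MAP kinases and other signalling pathways. Serum response factor (SRF), the product of Srf, binds CArG boxes in the promoters of many of them, among them Egr1 and Fos, and of genes of the actin cytoskeleton. Serum also carries bone morphogenetic proteins (BMPs), whose receptors act through SMAD proteins and raise the Id genes in ES cells. Genes that rise in every line and genes that move in 1 line were therefore described apart.

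Values are normalized intensities of probe sets, the groups of short probes that read a transcript. Values under the 40th percentile of all values (84.98, log2 6.41) were set to that floor before log2 was taken, so a change that starts or ends at the floor is a limit. The deposited values include negative ones, which lie under the floor. The change of 180 minus 10 min was tested in a limma fit of line and time over the 12 arrays of 10, 30, 60 and 180 min, and a probe set was called where its p, adjusted by Benjamini-Hochberg over 9558 probe sets, was under 0.05.

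No check of the deleted gene was possible, as 0 probe sets carry the symbol Srf. The ES markers Pou5f1, Sox2, Nanog, Zfp42, Utf1, Fgf4, Tdgf1 and Dppa5a lay above the floor on all 6 arrays, with a summed level of 70904 to 102798 at 180 min and 82191 to 96430 at 10 min. The sum of 6 primitive endoderm markers was 1565 to 2685 at 180 min and 1323 to 1791 at 10 min. That of 4 trophoblast markers was 121 to 315 and 199 to 400. Gata4, Ttr, Dab2 and Eomes of these were above the floor on all 6 arrays, Gata6, Afp, Sox17 and Cdx2 on some, and Krt7 and Hand1 on 0. Gata4 gave 821 to 1032 at 180 min and 255 to 558 at 10 min, without a call. The sum of 9 feeder fibroblast markers was 857 to 1274 at 180 min and 846 to 1695 at 10 min. Of these, Col1a2, Col5a2, Thy1 and Loxl1 were under the floor on all 6 arrays. Col1a1 was above it on all 6 (473 to 690 at 180 min and 428 to 963 at 10 min), Lum on 5, Col3a1 and Dcn on 4 each, and Postn on 1. A low feeder signal is thus not excluded. Some technical values moved with time in all lines and others in opposite directions. The 18S ribosomal RNA control probe gave 4275 at 180 min and 18717 at 10 min in E100-/-, 23054 and 754 in rescue, and 23329 and 1527 in E14wt. Values at or below 0 made up 37.1% at 180 min and 26.7% at 10 min in E100-/-, 25.2% and 37.4% in rescue, and 27.5% and 25.1% in E14wt. The 3′ to 5′ ratio of the actin controls, which rises as RNA degrades, was higher at 180 min in every line, at 1.94 and 1.79 at 180 and 10 min in E100-/-, 1.42 and 0.989 in rescue, and 2.11 and 0.847 in E14wt. That of Gapdh was 0.687 and 0.686 in E100-/-, 0.742 and 0.726 in rescue, and 1.23 and 0.685 in E14wt. The actin ratio thus moved with the change shared by the lines, and its part in the calls was not tested. With the 18S signal as a covariate 11 probe sets were called higher and 0 lower, and with the share of values at or below 0 as a covariate 9 and 0. The 0 min arrays were left out of the fit. On the array labelled E100-/- rescue at 0 min, all 18 probe sets called below lay nearer to the 180 than to the 10 min array of that line, against 1 of 18 in E100-/- and 4 of 18 in E14wt.

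Late in the course all 3 lines shared higher transcripts of the Id genes Id1, Id2 and Id3, of the zinc exporter gene Slc30a1, of the phosphatase gene Dusp1 and of the GTPase gene Rhob. The linker histone gene H1f2 was also called, but it was under the floor on every array of 10, 30 and 60 min, so its p cannot be relied on. Of the 9558 probe sets, 16 were higher (0.167%) and 2 were lower (0.0209%) at 180 min, and 680 had an unadjusted p under 0.05. The higher ones were 14 named genes, of which Taf1d was read by 2 probe sets, and 1 probe set without a name, and the lower ones were Rhbdl3 and Trim25. On all 18 of these probe sets the 3 arrays of 180 min did not overlap the 3 of 10 min. They were picked by a test on these same arrays, so this adds no support. The share of all 9558 probe sets without overlap was not counted. The count of calls rests on the arrays in the fit. It was 0 higher and 0 lower without E14wt and also without E100-/- rescue, and 3 higher and 3 lower without E100-/-. It was 0 and 0 with the 6 arrays of 10 and 180 min only, with all 15 arrays, and without the 60 min arrays, and 3 and 1 without the 30 min arrays. The direction of each named called gene held in all 17 to 19 alternative settings in which it was tested, while its call held in 5 to 12 of them.

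**Figure D1:**
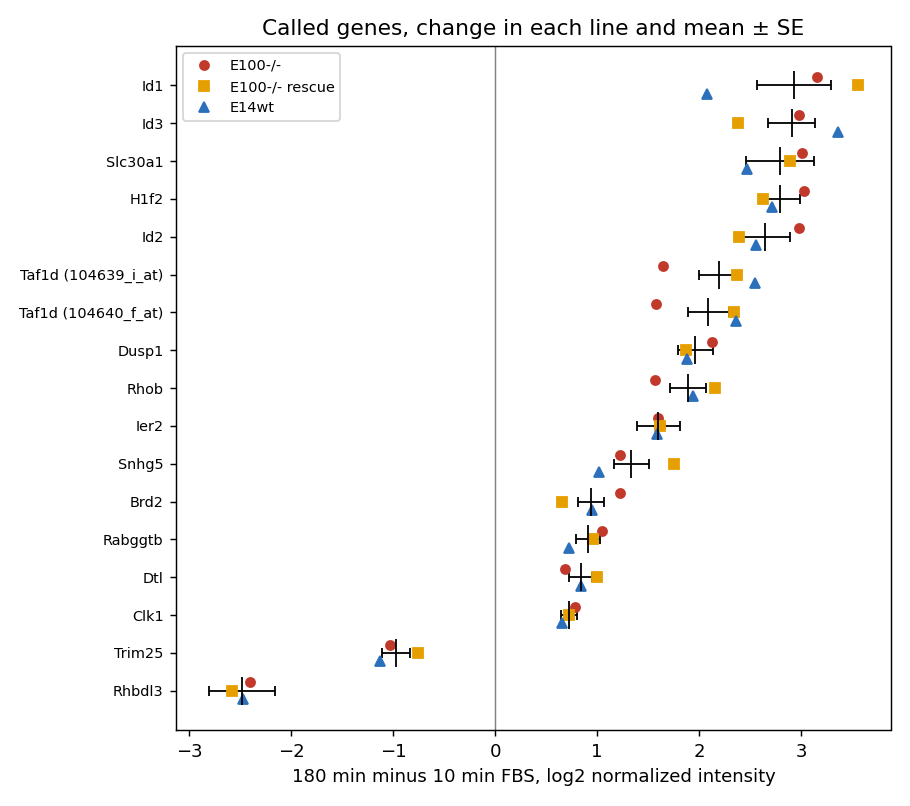
Change of the 17 named called probe sets between 180 and 10 min FBS on the log2 scale. Coloured points are the 3 lines (1 array pair each), and black ticks with bars are the mean and its SE from the fit. Every line lies on the same side of 0 for each gene, with the Id genes, Slc30a1 and H1f2 above 2 in all lines.

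The Id proteins pair with transcription factors of the helix-loop-helix class and keep them off DNA. Id1 gave 9852, 7462 and 9744 intensity units at 180 min in E100-/-, rescue and E14wt, against 1108, 634 and 2317 at 10 min. Id3 gave 2996, 4581 and 4621 at 180 min, against 381, 881 and 449 at 10 min in the same order of lines. Id2 gave 5026, 3787 and 5721 at 180 min, against 637, 725 and 973 at 10 min. All 3 genes were higher on each array of 180 min than on any of 10 min, with the smallest gap in E14wt for Id1, which began highest there. The mean changes were 2.93 ± 0.36 for Id1, 2.91 ± 0.23 for Id3 and 2.64 ± 0.25 for Id2 (log2, SE, 3 pairs), with adjusted p of 0.0309, 0.00516 and 0.00557 in limma. Id4, the remaining family member, did not share this pattern in its values, with changes of 0.87 in E100-/-, -0.16 in rescue and -0.65 in E14wt. On the log2 scale, the fitted change at 60 min had reached 63.8% of the 180 min change for Id1, 55.4% for Id3 and 44.1% for Id2. At 30 min it had reached under 6% for each, as 5.49%, 5.82% and 1.12%.

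Among 13 tested genes of BMP and TGF-beta signalling and the Id family, 3 were called higher and 0 lower in the fit over 6764 genes, in which 16 genes were called higher (0.237%) and 2 lower (0.0296%). Their median change was 0.16, against -0.02 for all genes. Bmp4, a BMP ligand, gave 4685, 1790 and 2634 at 180 min, against 5736, 3817 and 5323 at 10 min, a mean change of -0.80 ± 0.19 that did not pass the test (adjusted p = 0.356 in limma), and its second probe set changed by 0.55 ± 0.34, so they disagree in sign. Smad7 (0.33 ± 0.20) and Smad6 (0.22 ± 0.33), which encode inhibitors of the pathway and are themselves its targets, were not called. Id4, Smad6 and Smad7 are named after their values were seen.

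Slc30a1 encodes a transporter that moves zinc out of the cell. It gave 1356, 1239 and 1053 at 180 min in E100-/-, rescue and E14wt, against 169, 167 and 190 at 10 min. It rose by 2.79 ± 0.33 (log2, SE, 3 pairs, adjusted p = 0.0253 in limma). Its values climbed through the course, with 39.7% of the log2 change reached at 30 min and 73.8% at 60 min. Among 15 genes of zinc handling, a list made after these values were seen, 1 was called higher and 0 lower, with a median of 0.31. The called gene was Slc30a1 itself, so this count is no separate support. The metallothionein genes Mt1 and Mt2, which encode zinc-binding proteins, were not called. Mt1 changed by 2.82, 0.95 and 2.13 and Mt2 by 1.81, -0.08 and 1.88 in E100-/-, rescue and E14wt.

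H1f2 encodes a linker histone, which binds DNA between nucleosomes, and related histone genes of similar sequence may share its probes. It gave 691, 525 and 558 at 180 min, and it lay under 0 on all 9 arrays of 10, 30 and 60 min. On average it was 6.91-fold higher at 180 min than the floor, which is a lower limit of its mean rise (adjusted p = 0.00437 in limma). It passed the filter on dim probe sets through arrays on which it is high, and values at the floor make the spread too small, so this p cannot be relied on. It was also the only probe set called between 180 and 60 min (1 of 9558, 0.0105%), where 611 had an unadjusted p under 0.05. The other 15 called risers had a mean at 60 min that lay between those of 10 and 180 min. No probe set was called between 30 and 10 min (202 with an unadjusted p under 0.05) or between 60 and 10 min (416) in the same limma fit.

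**Figure D2:**
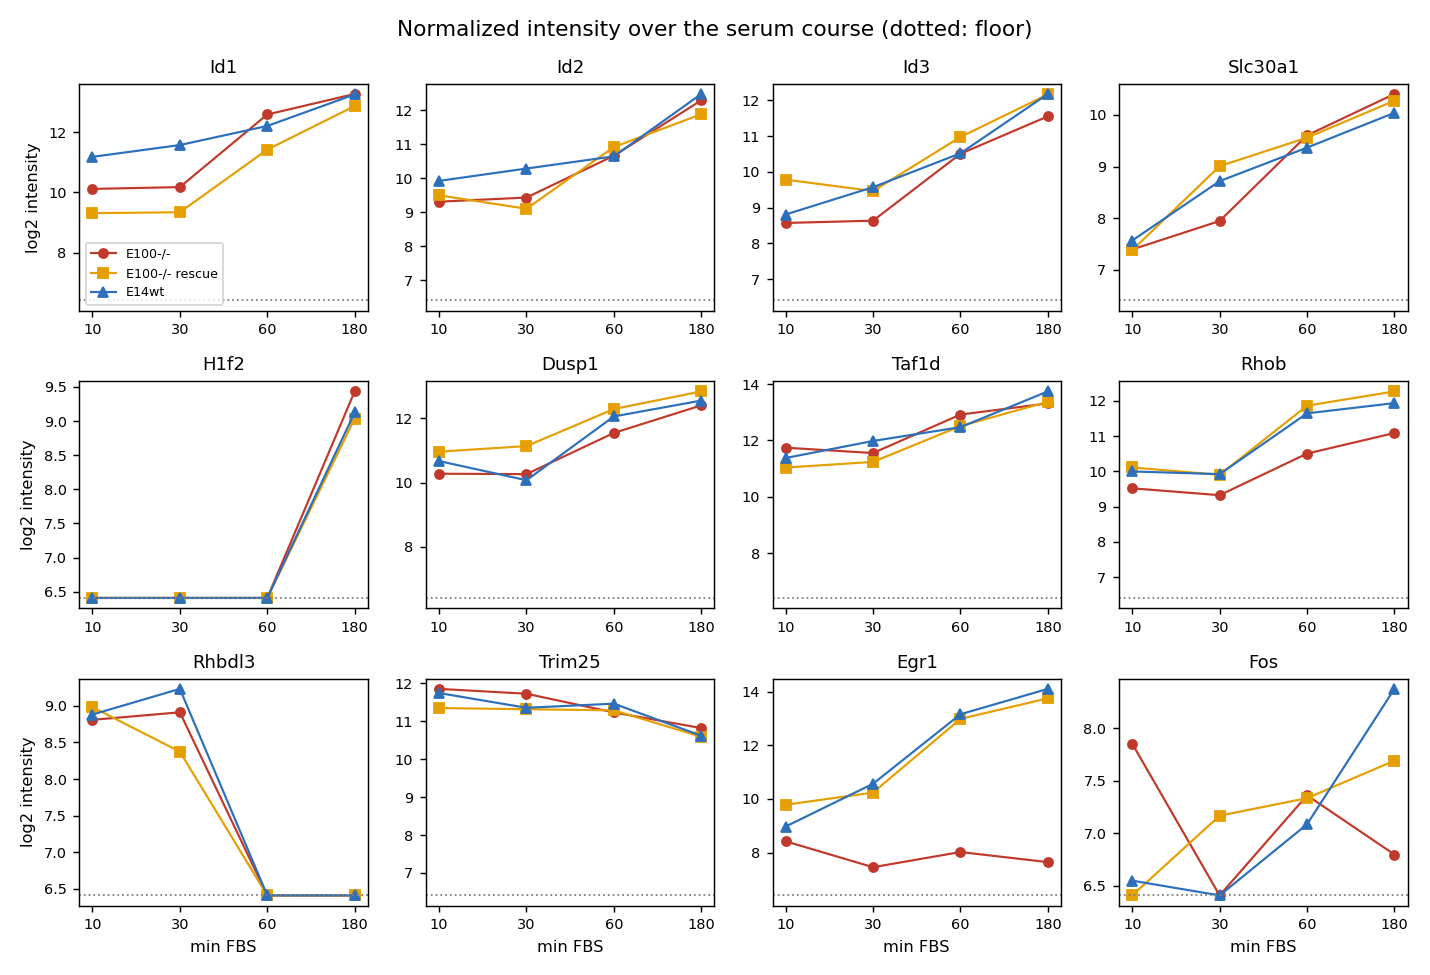
Log2 normalized intensity at 10, 30, 60 and 180 min FBS (axis not to scale in time) for 10 called genes and for Egr1 and Fos, with 1 point per array, lines coloured by cell line and the floor dotted. H1f2 leaves the floor at 180 min and Rhbdl3 is at it by 60 min in all 3 lines, while Egr1 stays low in E100-/-.

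Dusp1, Rhob, Ier2 and Brd2 were the called genes of signalling and early transcription. Dusp1 encodes a phosphatase that switches off MAP kinases, and it gave 5413, 7315 and 6006 at 180 min in E100-/-, rescue and E14wt, against 1239, 1994 and 1628 at 10 min. Rhob encodes a small GTPase, and it gave 2177, 4931 and 3920 at 180 min, against 734, 1105 and 1022 at 10 min. Ier2 encodes a nuclear immediate-early protein, and it gave 14896, 19953 and 19728 at 180 min, against 4909, 6518 and 6572 at 10 min. The mean changes were 1.96 ± 0.17 for Dusp1, 1.89 ± 0.17 for Rhob and 1.60 ± 0.21 for Ier2 (log2, SE, 3 pairs), with adjusted p of 0.00557, 0.00557 and 0.0333 in limma. The change of Ier2 was near equal in the lines, at 1.60, 1.61 and 1.59. Brd2, whose product reads acetylated histones, rose by 0.94 ± 0.12 (adjusted p = 0.0328 in limma), with values of 3100, 2535 and 2769 at 180 min against 1331, 1611 and 1437 at 10 min.

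Taf1d, Snhg5 and Rabggtb carry small nucleolar RNAs (snoRNAs), which guide the modification of ribosomal RNA, in their introns. Taf1d, which also encodes a factor of RNA polymerase I, gave 9397, 9768 and 13342 at 180 min, against 3002, 1883 and 2276 at 10 min, a rise of 2.19 ± 0.20 (adjusted p = 0.00557 in limma). Its second called probe set rose by 2.09 ± 0.20 (adjusted p = 0.00563), and another, dimmer one changed by 2.56 ± 0.50 and was not called. Snhg5, a non-coding host transcript, gave 4046, 4433 and 3706 at 180 min, against 1735, 1313 and 1827 at 10 min, and rose by 1.33 ± 0.17 (adjusted p = 0.0328). Rabggtb, which encodes a subunit of an enzyme that attaches lipids to Rab proteins, rose by 0.91 ± 0.11 (adjusted p = 0.0309), with 10551, 7640 and 8319 at 180 min against 5089, 3934 and 5045 at 10 min. Among 15 snoRNA host genes, a list made after these values were seen, 4 were called higher in the fit over genes and 0 lower, with a median of 0.54. Over all 6764 genes 16 were called higher (0.237%), with a median of -0.02. Taf1d, Snhg5 and Rabggtb are among the 4 and were known when the list was made, so its count and median are no separate support. The fourth was Nop56, whose product is a core protein of snoRNA particles (0.71 ± 0.11, adjusted p = 0.0457 in the fit over genes and 0.0609 over probe sets). Among 22 genes of ribosome biogenesis, 1 (Nop56) was called, and the median was -0.05. Gnl3, the nucleostemin gene, changed by 0.53, 0.56 and 0.54 in E100-/-, rescue and E14wt and was not called (adjusted p = 0.187).

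Clk1 and Dtl, the smallest called rises, are named after their values were seen. Clk1 encodes a kinase that phosphorylates SR splicing factors, and it gave 5390, 5258 and 4628 at 180 min, against 3135, 3187 and 2939 at 10 min. It rose by 0.72 ± 0.08 (adjusted p = 0.0141 in limma). Clk3 and, named after its values were seen, Clk4 changed by 1.81 and 0.93 without a call, and among 13 CLK and SR factor genes, a list made after these values were seen, 1 was called, with a median of 0.42. The called gene was Clk1 itself, so this count is no separate support. Dtl encodes a substrate receptor of a ubiquitin ligase used in S phase, and it rose by 0.84 ± 0.11 (adjusted p = 0.0333), with 4086, 4211 and 4245 at 180 min against 2544, 2114 and 2367 at 10 min. The values of 180 min lie close to each other for both genes and above all of 10 min.

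Falls shared by the lines were fewer by this test. Rhbdl3, a gene of the rhomboid family of membrane proteins, was under 0 on all 3 arrays of 180 min, against 449, 506 and 472 at 10 min in E100-/-, rescue and E14wt. It was also under 0 on all 3 arrays of 60 min. On average the floor was 5.59-fold lower than its value at 10 min, which is a lower limit of its mean fall. The adjusted p was 0.0328 in limma, with the same limit from values at the floor. Trim25, which encodes a ubiquitin ligase of antiviral signalling, gave 1806, 1543 and 1571 at 180 min, against 3697, 2605 and 3426 at 10 min. It fell by 0.97 ± 0.14 (log2, SE, 3 pairs, adjusted p = 0.04 in limma). Another 10 genes, ranked by the smallest of their 3 line changes, had lower values in all lines without a call, and 9 of them were at the floor on at least 2 of the 3 arrays of 180 min. They are Lox, Uggt1, Myh4, Eny2, Lrp10, Col12a1, Sirt2, Sart1, Nlrx1 and Cdh3. Uggt1, an enzyme that checks the folding of glycoproteins, was under 0 on all 3 arrays of 180 min, against 497, 329 and 340 at 10 min. At 30 min it gave 44, 229 and a value under 0, and at 60 min 455, 543 and 281, so it did not fall steadily. Its adjusted p for 180 minus 10 min was 0.224 in limma. Cdh3, the P-cadherin gene, stayed above the floor, with 117, 371 and 423 at 180 min, against 355, 1691 and 985 at 10 min (adjusted p = 0.701). Second probe sets of Col12a1 (0.01 ± 0.47) and Nlrx1 (a positive mean change) did not show a fall.

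The promoters of called genes that had an entry in the RefSeq table of GRCm38.p6 are shown as the sequence before the start of genes that moved together, taken for the 3 largest risers with an entry and for the called faller. They are the 250 bases before the start, 5′ to 3′ on the coding strand, with capitals for motif matches.
Id3, chr4:136143572-136143821, plus strand: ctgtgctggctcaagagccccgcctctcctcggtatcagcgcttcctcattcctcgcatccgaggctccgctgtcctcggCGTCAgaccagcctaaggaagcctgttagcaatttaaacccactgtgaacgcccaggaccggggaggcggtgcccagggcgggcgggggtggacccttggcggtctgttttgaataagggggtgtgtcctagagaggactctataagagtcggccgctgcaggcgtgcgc
Slc30a1, chr1:191906531-191906780, plus strand: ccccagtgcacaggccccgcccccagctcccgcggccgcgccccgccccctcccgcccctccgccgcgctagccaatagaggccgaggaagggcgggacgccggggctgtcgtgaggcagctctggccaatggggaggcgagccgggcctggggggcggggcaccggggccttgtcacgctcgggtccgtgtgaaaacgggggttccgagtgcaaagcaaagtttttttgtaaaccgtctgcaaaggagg
H1f2, chr13:23738557-23738806, plus strand: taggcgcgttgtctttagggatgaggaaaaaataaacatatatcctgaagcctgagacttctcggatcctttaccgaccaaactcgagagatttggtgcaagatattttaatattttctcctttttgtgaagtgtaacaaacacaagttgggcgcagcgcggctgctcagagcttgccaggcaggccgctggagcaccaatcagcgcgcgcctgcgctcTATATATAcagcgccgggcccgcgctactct
Trim25, chr11:88999153-88999402, plus strand: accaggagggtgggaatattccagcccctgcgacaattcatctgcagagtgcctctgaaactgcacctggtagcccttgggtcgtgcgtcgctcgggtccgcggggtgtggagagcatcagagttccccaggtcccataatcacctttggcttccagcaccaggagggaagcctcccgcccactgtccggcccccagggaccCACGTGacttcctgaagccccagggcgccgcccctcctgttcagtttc
Searched on both strands over 300 bases (250 before and 50 after the start) were the core of the cAMP response element (TGACG), the E-box (CACGTG), the AP-1 site (TGACTCA or TGAGTCA), the TATA box (TATAAA or TATATA) and the CArG box. Id3 held 1 cAMP response core, at 170 bases before the start, H1f2 held 2 overlapping TATA boxes that begin 31 and 29 bases before it, and Trim25 held 1 E-box at 48 bases. Slc30a1 held none of these letters. Of the 14 named risers 11 had an entry. A gene was counted if any of its promoters held a match, while the share of all is per promoter, so the 2 measures differ. Brd2 had 3 promoters and Rabggtb 2. The cAMP response core lay in 4 of the 11 (Id3, Dusp1, Brd2 and Dtl) and in 20.8% of all 32851 promoters. The TATA box lay in 2 of the 11 (H1f2 and Snhg5) and in 17.1% of all, and the E-box in 1 (Dusp1) and in 7.15%. The AP-1 site and the CArG box lay in 0 of the 11, and in 5.2% and 1.63% of all promoters. A match describes these letters and does not show that a factor binds.

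Among 20 tested immediate-early transcription factor genes, 11 were higher in all 3 lines and 0 lower in all 3. Over 6764 genes, 628 were higher in all 3 lines (9.28%) and 777 lower (11.5%). Ier2 and Klf6 were called in the fit over genes. The median change of the list was 1.33, and by line 0.58 in E100-/-, 1.35 in rescue and 1.71 in E14wt. Klf6, a zinc finger factor, gave 2305, 4272 and 3308 at 180 min, against 1111, 1228 and 1171 at 10 min, a change of 1.45 ± 0.22 (adjusted p = 0.0452 over genes and 0.0609 over probe sets in limma).

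Jun and Junb, subunits of AP-1, the dimeric factor of JUN and FOS proteins, had larger mean changes than Klf6 without a call. Jun gave 758, 1033 and 1464 at 180 min, against 94, 68 and 47 at 10 min, where rescue and E14wt were under the floor (3.57 ± 0.70, adjusted p = 0.202 in limma), and the groups did not overlap. Junb gave 1028, 2399 and 1963 at 180 min, against 46, 588 and 181 at 10 min (3.02 ± 0.65, adjusted p = 0.284). Atf3, a stress-inducible partner of JUN, gave 573, 5522 and 4641 at 180 min, against 158, 595 and 598 at 10 min (2.68 ± 0.45, adjusted p = 0.115). The array of E100-/- at 180 min lay within the range of 10 min for Atf3, so the groups overlap. A second Atf3 probe set changed by 0.00, 3.02 and 3.85 and was at the floor in E100-/- at both times. Btg2, an antiproliferative gene, changed by 0.50, 1.16 and 1.16 in E100-/-, rescue and E14wt (adjusted p = 0.167).

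Egr1 and Fos, textbook targets of SRF, moved apart between the lines. Egr1 gave 201, 13748 and 17551 at 180 min in E100-/-, rescue and E14wt, against 343, 882 and 503 at 10 min, changes of -0.78, 3.96 and 5.13. Its second probe set gave 0.00, 2.95 and 5.06, where 0.00 stands for both values at the floor. Fos gave 111, 207 and 332 at 180 min, against 231, 63 and 94 at 10 min, changes of -1.06, 1.28 and 1.83 close to the floor. In a fit of late changes by line, in which 180 min is set against 10, 30 and 60 min together, so that its values are not the differences of the changes just given, E100-/- differed from the mean of the other lines by -3.29 ± 1.49 for Egr1 (adjusted p = 0.58 in limma) and by -1.62 ± 0.73 for Fos (adjusted p = 0.58), so neither difference passed the test. From 10 to 180 min the 18S control also moved one way in E100-/- and the other way in rescue and E14wt. At 30 and 60 min, also in this fit, it gave 2743 and 24382 in E100-/-. It gave 481 and 1473 in rescue, and 22707 and 1195 in E14wt. Its part in the differences for Egr1 and Fos was not tested. Fosl1, another FOS family gene, had a difference of the opposite sign that passed the test, 1.22 ± 0.12 (adjusted p = 0.0439 in limma), with 337, 246 and a value under the floor at 180 min. It was under the floor on the other 10 of the 12 arrays, where the spread is too small for this p to be relied on.

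Among 10 genes listed as secreted and surface genes of the early serum response, 6 were higher in all 3 lines and 0 lower. Over all 6764 genes, 9.28% were higher in all 3 lines and 11.5% lower. The median of the list was 0.89. Rhob alone was called, and its GTPase is neither secreted nor a surface protein. Ccn2, the connective tissue growth factor gene, gave 2925, 7420 and 9896 at 180 min, against 278, 283 and 933 at 10 min. Its change of 3.84 ± 0.73 was the largest among probe sets 2-fold higher in all lines, and it was not called (adjusted p = 0.187 in limma). Its relative Ccn1 gave 196, 1761 and 1861 at 180 min, against a value under the floor, 213 and 333 at 10 min, and was not called (2.24 ± 0.66, adjusted p = 0.608). The array of E100-/- stayed lowest at both times for both genes. Ptgs2, which encodes a prostaglandin synthase, changed by 0.29, 1.31 and 1.39 (adjusted p = 0.4).

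Among 13 feedback regulators of ERK and cytokine signalling, 7 were higher in all 3 lines and 2 lower. Of all 6764 genes, 9.28% were higher in all 3 lines and 11.5% lower. In this list Dusp1 alone was called, and the median was 0.38. Socs3, an inhibitor of JAK and STAT signalling, gave 4924, 3914 and 5432 at 180 min, against 2247, 2364 and 3262 at 10 min, and missed the threshold (0.86 ± 0.13, adjusted p = 0.072 in limma). Zfp36, whose product destabilises mRNAs of cytokines, changed by 2.58 ± 0.44 (adjusted p = 0.125), and its relative Zfp36l1 by 0.76, 0.68 and 0.64 in E100-/-, rescue and E14wt (adjusted p = 0.134). Dusp6, a phosphatase specific for ERK, changed by 0.74, 0.22 and 0.19 and was not called.

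**Figure D3:**
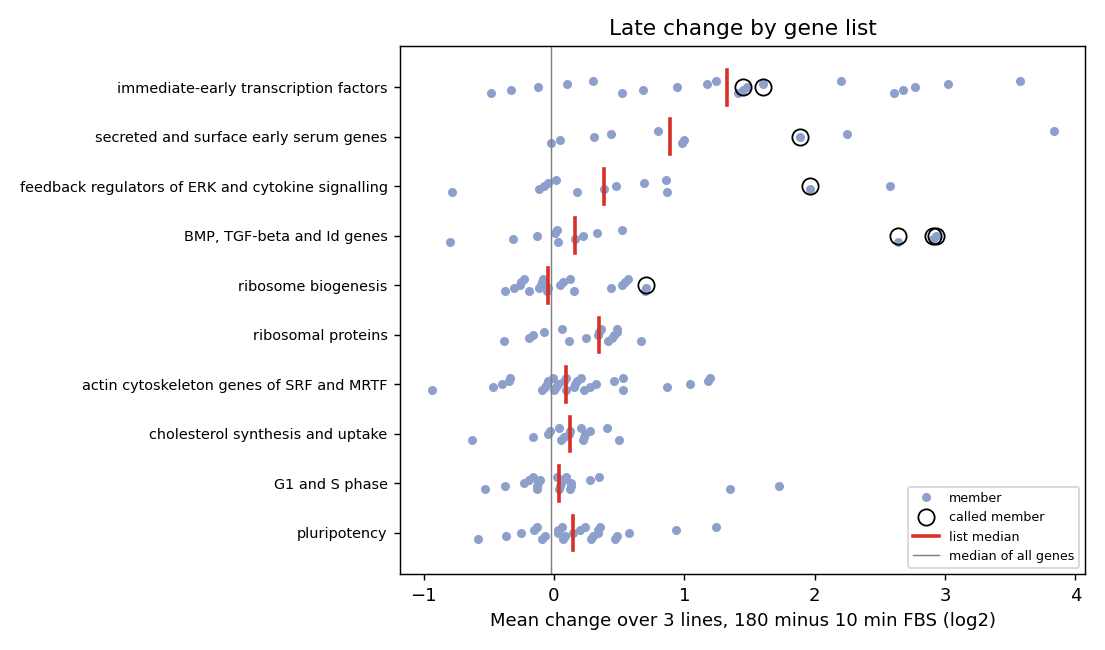
Mean change over the 3 lines between 180 and 10 min FBS (log2) of the members of 10 gene lists, with called members of the fit over genes ringed, list medians in red and the median of all genes (-0.02) in grey. The 3 Id genes stand apart from the rest of their list, whose median is 0.16, and immediate-early transcription factors have a median of 1.33.

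Other lists held no called gene in the fit over genes by limma, in which 524 of 6764 genes had an unadjusted p under 0.05. Among 30 actin cytoskeleton genes of SRF and its MRTF cofactors, 3 were higher in all 3 lines and 0 lower, and the median was 0.10. The share over all 6764 genes was 9.28% higher in all 3 lines and 11.5% lower. Actb (beta-actin) gave 3858, 10693 and 15641 at 180 min, against 5145, 3424 and 3157 at 10 min, changes of -0.42, 1.64 and 2.31 (adjusted p = 0.722), and its second probe set changed by -0.49, 0.39 and 2.13. The difference of E100-/- from the other lines was -1.83 ± 0.89 for Actb (adjusted p = 0.601 in limma). Actg1 (gamma-actin) and Vcl (vinculin) had changes of -0.04 ± 0.21 and -0.05 ± 0.27, whose sign turned under other settings, for Actg1 with both other scalings (0.74 with a common median and 0.75 with a common trimmed mean). Csrp1, a LIM protein gene, changed by 1.87, 0.46 and 1.25 (adjusted p = 0.608).

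Among 22 genes of G1 and S phase, 4 were higher in all 3 lines and 1 lower, with a median of 0.04. The shares of all 6764 genes were 9.28% and 11.5%. Ccnd1 (cyclin D1) changed by 0.15, 0.11 and 0.11. Myc gave 572, 257 and 169 at 180 min, against 521, 282 and 465 at 10 min, and Odc1, the ornithine decarboxylase gene, was under the floor on 3 of the 6 arrays. The median was 0.12 for 16 genes of cholesterol synthesis and uptake and -0.06 for 18 genes of G2 and mitosis. The median of 16 ribosomal protein genes was 0.34 here, but 0.77 with a common median and 0.78 with a common trimmed mean, and by line it was -0.20 in E100-/-, 0.24 in rescue and 0.96 in E14wt.

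Growth arrest, stress and lineage lists likewise held 0 called genes. Gadd45a, Gadd45b and Gadd45g, stress genes of growth arrest, had mean changes of 0.90, 2.31 and 1.56 without a call, and 17 genes of that list had a median of -0.01. The median was -0.02 for 16 genes of the amino acid response, -0.12 for 12 of polyamine and nucleotide synthesis, -0.03 for 20 chaperones and genes of unfolded protein, -0.16 for 17 of hypoxia and glycolysis, and 0.27 for 12 p53 targets and apoptosis genes. It was 0.13 for 14 LIF and STAT3 genes, 0.04 for 12 of the serum-shock clock, and -0.12 for 11 of the interferon response. Among 25 pluripotency genes, 6 were higher in all 3 lines and 1 lower, with a median of 0.15, where 9.28% and 11.5% of all 6764 genes were. Pou5f1, the Oct4 gene, gave 27191, 13035 and 13260 at 180 min, against 24499, 24227 and 26738 at 10 min, changes of 0.15, -0.89 and -1.01 in E100-/-, rescue and E14wt. E100-/- differed from the other lines by 1.01 ± 0.40 for Pou5f1, which did not pass the test (adjusted p = 0.553 in limma). With both other scalings the median turned positive for ribosome biogenesis (0.06 and 0.07), growth arrest (0.08 and 0.10), chaperones (0.08 and 0.09), hypoxia and glycolysis (0.06 and 0.06) and mesoderm (0.08 and 0.10), and slightly negative for the clock list (-0.01 and -0.01). Lineage lists had medians of 0.05 (14 primitive endoderm genes), -0.01 (6 mesoderm), 0.22 (9 neural), 0.13 (11 trophoblast), 0.03 (22 matrix and adhesion) and 0 (11 feeder fibroblast genes). Bcl2, which encodes an inhibitor of apoptosis, changed by -1.14, 2.83 and -0.06 near the floor.

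By fold alone, 38 probe sets were at least 2-fold higher in all 3 lines (0.398% of 9558) and 20 at least 2-fold lower (0.209%). Of the 38, 12 were also called and 18 were at the floor on a 10 min array, and of the 20, 1 was called and 17 were at the floor on a 180 min array. Besides genes already given, the higher set included Rassf1, a tumour suppressor gene, with 899, 691 and 1379 at 180 min against 141, 167 and 317 at 10 min, and Epha2, an ephrin receptor gene, with 3198, 1585 and 3300 against 1074, 791 and 818. Neither was called (adjusted p = 0.25 and 0.224 in limma), and both are named after their values were seen.

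Changes of single lines were described by fold, a rule that 1 pair of arrays can meet and that is not comparable with the calls over 3 pairs. A probe set was counted for a line if it changed at least 2-fold there and by under 0.5 (log2) in both others. This held for 123 higher (1.29%) and 103 lower (1.08%) in E100-/-, for 133 (1.39%) and 146 (1.53%) in rescue, and for 331 (3.46%) and 319 (3.34%) in E14wt. These counts carry no test, as each rests on 1 pair of arrays. The SD of the change over 5847 probe sets above the floor on all 6 arrays was 0.56 in E100-/-, 0.64 in rescue and 0.85 in E14wt. Across these probe sets, which are not independent replicates, the changes correlated at r = -0.165 between E100-/- and rescue, -0.0885 between E100-/- and E14wt and 0.307 between rescue and E14wt, and each pair of lines shares its processing and floor.

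**Figure D4:**
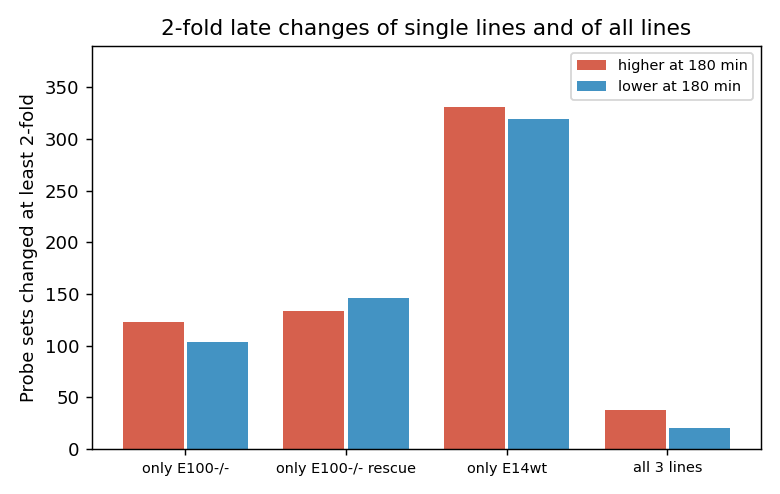
Number of the 9558 probe sets that changed at least 2-fold in 1 line and under 0.5 (log2) in both others, and at least 2-fold in all 3 lines, higher (red) and lower (blue) at 180 min than at 10 min FBS. E14wt has the highest single bars (331 and 319), and the shared sets hold 38 and 20.

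Most genes named by this rule changed between signal and no signal, with 17 of 24 at the floor at 10 min for rises or at 180 min for falls. Elf3, an epithelial ETS factor gene, gave 964 in E100-/- at 180 min and was under 0 at 10 min, while rescue gave 911 and 1261 and E14wt 461 and 457 at 180 and 10 min. Slc25a25 (3.56), Psd (2.92) and Kcnn4 (2.59) were the other rises of E100-/- with the widest gap to the nearer of the other lines, which ranks all genes named here, and Rab26os (-2.86), Asap1 (-2.71), Wrn (-2.65) and Gdap10 (-2.01) its falls. In rescue they were Gmppb (3.07), Ttc3 (2.91), St8sia1 (2.34) and Pgam1 (2.60) upward and Ttc39b (-3.16), Prp2 (-3.03), Stag3 (-2.91) and Vhl (-2.88) downward, Vhl being a tumour suppressor of oxygen sensing. In E14wt they were Pcp2 (6.62), Kcnk4 (4.67), Emc6 (3.81) and C1ra (3.82) upward and Cdc45 (-4.23), Slc7a3 (-4.10), Cdk5r1 (-3.92) and Plk1 (-3.35) downward. Plk1, the mitotic kinase gene, changed by -0.68 in E14wt on its second probe set, so its probe sets disagree in size. The rule compares 180 with 10 min only, so 1 odd array of 10 min can meet it. In rescue Gmppb, Ttc3 and Pgam1 already gave 463, 361 and 679 at 30 min, against 711, 638 and 723 at 180 min. St8sia1 gave 98 and 431. In E100-/- Psd gave 2105 and Elf3 730 at 30 min, against 1790 and 964 at 180 min. Apart from St8sia1, these need not be late changes, and the other genes were not sorted in this way.

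Changes in both lines other than E100-/-, at least 2-fold in each and under 0.5 in E100-/-, numbered 92 higher (0.963%) and 96 lower (1%). The like counts were 52 (0.544%) and 47 (0.492%) for both lines other than rescue, and 19 (0.199%) and 26 (0.272%) for both lines other than E14wt. The 18S control changed in 1 direction in rescue and E14wt and in the other in E100-/-. Its part in these counts was not tested.

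**Figure D5:**
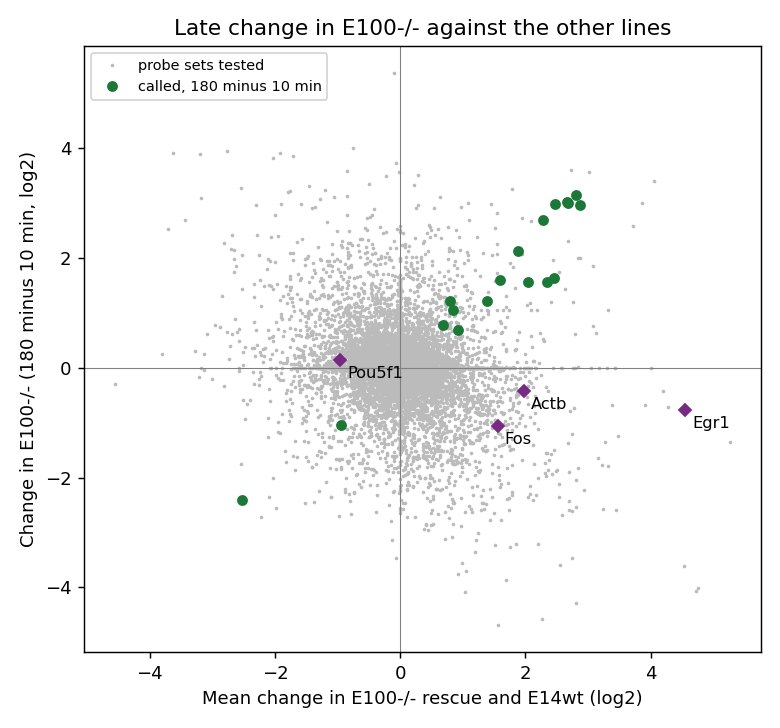
Late change (180 minus 10 min FBS, log2) in E100-/- on the vertical axis against the mean of rescue and E14wt on the horizontal axis, for all probe sets tested (grey), the 18 called ones (green) and Egr1, Fos, Actb and Pou5f1 (purple). Called probe sets lie in the quadrants of equal sign, and Egr1, Fos and Actb lie to the right and below 0.

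The difference between lines was tested in a fit of line, time and the late change of each line, with 4 residual degrees of freedom, in which 180 min is set against the 10, 30 and 60 min arrays together. Probe sets called were 26 for E100-/- (0.272%), 1 for rescue (0.0105%) and 110 for E14wt (1.15%). Of these, 24, 1 and 88 were at the floor on more than 6 of the 12 arrays, where values at the floor make the spread too small. Over the 7633 probe sets that exceeded the floor on 6 or more of the 12 arrays, a filter added after these calls were seen, the counts were 0 for E100-/- (0% called, 569 with an unadjusted p under 0.05), 0 for rescue (0% called, 251) and 6 for E14wt (0.0786%, 717). All 6 were lower in E14wt.

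The 5 named genes among these 6 were Slc7a3, Cdc45, Mpdu1, Hspbp1 and Klc1. Slc7a3, which encodes a transporter of cationic amino acids, gave 163 in E14wt at 180 min and 2800 at 10 min, while E100-/- gave 3053 and 2735 and rescue 2154 and 2222. Cdc45, a part of the replication helicase, was under 0 in E14wt at 180 min and 1596 at 10 min, while E100-/- gave 1659 and 1283 and rescue 1138 and 1548. Mpdu1, a gene of glycan assembly, was under 0 in E14wt at 180 min and 1684 at 10 min, while E100-/- gave 2327 and 1787 and rescue 1124 and 1775. These 3 genes were lowest on 1 array, E14wt at 180 min, and higher on each of the other 5. The contrasts of E14wt with the mean of the other lines were -3.82 ± 0.27 for Slc7a3, -4.11 ± 0.48 for Cdc45, -4.01 ± 0.30 for Mpdu1, -3.79 ± 0.35 for Hspbp1 and -3.59 ± 0.38 for Klc1 (log2, SE), with adjusted p of 0.00238, 0.0371, 0.00238, 0.0103 and 0.0227 in limma. Other probe sets of Klc1 changed by -1.97 and 0.24 in E14wt. That array also has the highest Gapdh 3′ to 5′ ratio of the 6, and its part in these falls was not tested.

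For none of the 16 named genes called as shared did the difference between E100-/- and the other lines pass this test (861 of 9558 probe sets had an unadjusted p under 0.05). The contrast was 0.09 ± 0.62 for Id1, 0.37 ± 0.47 for Id2, 0.00 ± 0.43 in size for Id3, 0.53 ± 0.55 for Slc30a1, 0.21 ± 0.31 for Dusp1 and -0.22 ± 0.31 for Rhob, with adjusted p of 0.983, 0.865, 1, 0.824, 0.886 and 0.875 in limma. A p that misses the threshold does not show that the responses were equal.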

How the data were processed

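RNA of 15 ES cell samples was hybridized to Affymetrix MGU74A arrays, 1 per line and time. The deposited intensity values, on a linear scale with negative values, were used; the authors' background correction and scaling could not be read from the labels. Gene symbols came from the GEO platform annotation (10276 of 12654 with 1 symbol, 363 with several, 1993 not listed). Values were quantile normalized, floored at the 40th percentile (84.98) and put on the log2 scale; 66 controls were left out, and 9558 probe sets that exceeded the floor on 2 or more of the 15 arrays were kept. The fit was limma 3.58.1 in R 4.3.3 (lmFit, eBayes with an intensity trend) of line and time over 12 arrays with 6 residual degrees of freedom, and a call was an adjusted p under 0.05. A fit over 6764 genes used the probe set of highest mean. The pairing by cell line comes from the labels; deviations of paired arrays correlated at -0.0606, 0.136 and -0.0557. With 3 pairs the smallest exact sign-permutation p is 0.25. Scripts were tested on simulated data. Named genes were the called ones with the largest changes, up to 12 in each direction, falls being filled up by size, 4 per line and direction for single lines by fold and up to 4 by contrast, up to 4 members of each list by p, and a fixed set that includes Egr1, Fos, Actb and Pou5f1; other genes are marked in the text. The members and lists were chosen with earlier results of these data known. Alternatives are given in the closing section.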

Additional observations from a re-analysis of the deposited data

Results flagged for a closer look

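The late change of 1 line differed from the mean of the other lines in the limma fit with a term for each line. For E100-/- the difference was 5.22 for Mrm3, 3.23 for Gt(ROSA)26Sor, 2.62 for Mpdu1 and 2.47 for Bmp15 upward, and -2.09 for B3gat2, -1.59 for Pkdcc, -1.54 for 1700074P13Rik and -1.49 for Ctf2 downward (log2, adjusted p 0.00679 to 0.0439 in limma). For E100-/- rescue it was 2.73 for Aanat (adjusted p = 0.0183 in limma). For E14wt it was 4.54 for Daglb, 3.19 for Pkdcc, 2.97 for Ctf2 and 2.62 for Aym1 upward, and -4.93 for Mrm3, -4.11 for Cdc45, -4.01 for Mpdu1, -3.82 for Slc7a3, -3.79 for Hspbp1 and -3.59 for Klc1 downward (adjusted p 0.00292 to 0.0462 in limma). Of these, Cdc45, Mpdu1, Slc7a3, Hspbp1 and Klc1 in E14wt passed among probe sets that exceeded the floor on 6 or more of the 12 arrays, and none of the E100-/- or rescue differences did.

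The 0 min arrays stand outside the fit. On the array labelled E100-/- rescue at 0 min, 18 of the 18 called probe sets were nearer to the 180 than to the 10 min array of the line, where 52.0% of all probe sets that differ were. The shares were 1 of 18 in E100-/- (43.7% of all) and 4 of 18 in E14wt (51.7%). The cause was not tested.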

How the results depend on the processing

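The 16 higher and 2 lower calls of 180 minus 10 min depend on the arrays and settings. They became 0 and 0 with the 6 arrays of 10 and 180 min only (387 with an unadjusted p under 0.05), with all 15 arrays (336), with the mean of 0 and 10 min as the start (374) and without the 60 min arrays (677), all in limma. They were 3 and 1 without the 30 min arrays, 6 and 0 with a common median, 10 and 1 with no filter, 9 and 0 with the share of values at or below 0 as a covariate, 11 and 0 with the 18S covariate, 9 and 1 with no intensity trend, 12 and 1 with no replicate block, and 19 and 1 both with a floor at the 50th percentile and above the floor on all 6 arrays. Leaving out 1 line gave 0 to 3 higher and 0 to 3 lower, 0 to 6 for 180 minus 60 min, and 79 to 265 higher and 66 to 240 lower at 2-fold in all remaining lines, where fewer lines make the rule easier to meet. The 60 min contrast (1) was 0 with all 15 arrays, above the floor on all 6 or at least 6 of 12 arrays, and without the 30 min arrays. Of 320 gene and setting comparisons of called genes 137 kept the call, 183 lost it and 0 reversed. Signs turned for Actg1 (0.65 from the mean of 0 and 10 min, 0.74 common median, 0.75 trimmed mean, 0.11 18S, 0.18 without E14wt), Vcl (0.84 from the mean of 0 and 10 min, 0.22 18S, 0.035 without rescue), Bcl2 (-0.12 18S, -0.60 without rescue), Myc (0.0023 without E14wt) and Odc1 (0.33 without E14wt, 0.046 without E100-/-). Over the 3 fits without 1 line, these genes ranged between 0.18 and -0.17 (Actg1), 0.035 and -0.17 (Vcl), -0.60 and 1.39 (Bcl2), 0.0023 and -0.79 (Myc) and 0.33 and -2.15 (Odc1). The cause was not tested.

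Line differences (E100-/- 12 higher and 14 lower, rescue 1 and 0, E14wt 85 and 25) moved as follows. With a common median they were 40 lower in E100-/-, 36 and 7 in rescue and 139 higher in E14wt, and with a common trimmed mean 80 lower, 30 and 25, and 187 higher. A floor at the 35th percentile gave 21 higher in E100-/- and 8 and 1 in rescue, and one at the 50th gave 4 and 5 in rescue. No filter gave 97 and 200, 59 and 50, and 253 and 163. Above the floor on all 6 arrays they were 0 and 0, 0 higher, and 0 and 1; at least 6 of 12 arrays gave 0 and 0, 0 higher, and 0 and 6. The covariate of values at or below 0 gave 0 and 0, 0 higher, and 42 and 11; 18S gave 0 and 0, 0 higher, and 46 and 14; no intensity trend gave 2 and 4, 0 higher, and 49 higher. Counts of 0 are from limma, and unadjusted p under 0.05 were 569, 251 and 717 over the 7633 probe sets.

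Changes by fold in 1 line moved too. A common median gave 32 higher in E100-/- and 338 higher and 32 lower in rescue, and a trimmed mean 76 higher and 82 lower there. The 35th percentile gave 189 higher in E100-/- and 49 lower in all lines. The 50th gave 53 and 49 in E100-/-, 69 and 76 in rescue, 212 higher in E14wt, and 24 and 1 in all lines. Above the floor on all 6 arrays the counts were 34 and 47, 61 and 45, 149 and 202, and 20 and 3, and on at least 6 of 12 arrays 64 higher in E100-/-, 81 lower in rescue and 199 higher in E14wt. A floor at the 30th percentile was not run, because that value is negative and has no log, and line differences were not refitted without a line or from 6 arrays. Signal near the floor limits the dim probe sets.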
